A study of Mus musculus with 15 samples.

Results

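Oxygen-using cells make superoxide and hydrogen peroxide as by-products of metabolism, and phagocytes such as microglia also make them on purpose. Superoxide dismutases turn superoxide into hydrogen peroxide, which catalase, the glutathione peroxidases and the peroxiredoxins then remove. Glutathione peroxidases draw on glutathione, and most peroxiredoxins draw on thioredoxin, which thioredoxin reductase keeps in its reduced form. Gpx3 encodes the secreted glutathione peroxidase of plasma and extracellular fluid, made mainly by the kidney, whereas the other enzymes act inside cells. The 10 genes described here are Gpx3, the intracellular glutathione peroxidases Gpx1 and Gpx4, the peroxiredoxins Prdx1, Prdx5 and Prdx6, the superoxide dismutases Sod1 and Sod2, the catalase gene Cat and the thioredoxin reductase gene Txnrd1. They were taken by name from the 35519 genes with a transcript in the deposited tables. Gpx3 was chosen by its measured rise in wild-type (WT) retinas after microbead injection. Its values in that comparison, and in those that share the WT microbead libraries, are therefore a description and carry no test. The other 9 were chosen beside it for their function, with earlier results of these data known. The question was whether Gpx3 moved alone or together with the other enzymes.

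Microglia were sorted from retinas of C57BL/6 mice aged 12 weeks as Fcrls+, CD11b+, Ly6c- cells, at 100 to 600 cells per retina, and each library was sequenced as bulk RNA. There were 4 libraries from Apoe-/- retinas injected with microbeads, 4 from sham-injected Apoe-/- retinas, 3 from WT retinas injected with microbeads and 4 from sham-injected WT retinas. Microbead injection is a procedure that raises eye pressure and serves as a mouse model of glaucoma, and Apoe-/- mice lack the lipid carrier apolipoprotein E in all their cells. The labels do not say whether 2 retinas came from 1 mouse, so the spread between libraries may in part be technical.

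Libraries held 458111 to 714670 reads assigned to genes, and 6521 genes had enough reads to be tested. The Apoe gene itself had 7.26 ± 2.53 CPM in Apoe-/- microbead, 5.46 ± 7.04 in Apoe-/- sham, 10177 ± 4754 in WT microbead and 1457 ± 49 in WT sham libraries (SD, n = 4, 4, 3 and 4), where CPM is the read count of a gene scaled to a common library size after TMM normalisation. All 10 homeostatic microglia markers examined had reads, with a summed level of 8561 to 13945 CPM in Apoe-/- microbead, 6802 to 13844 in Apoe-/- sham, 10154 to 13136 in WT microbead and 12078 to 13909 in WT sham libraries. Each genotype had its own plate letter in the names of the deposited tables, so an effect of plate position on the genotype comparisons cannot be told apart from genotype. Reads of 12 gene models of the major satellite, a centromeric repeat, made up 64.1 ± 6.58% of reads in Apoe-/- microbead, 67.8 ± 4.49% in Apoe-/- sham, 45.2 ± 7.23% in WT microbead and 61.3 ± 4.51% in WT sham libraries (SD). The share was 40.8 to 53.5% in WT microbead libraries, the group that carries the Gpx3 rise, and at least 55.4% in every other library. The Gpx3 log2 fold change in WT retinas was 4.23 without those gene models and 5.81 with the share as a covariate, beside 4.22 with neither. These values come from the contrast that chose Gpx3. The part of the satellite share in the rise was not tested and cannot be told apart from the group. In sorted bulk RNA, fewer cells that express a gene and less RNA of it per cell cannot be told apart.

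4 of the 10 genes encode selenoproteins, whose active site holds selenocysteine, an amino acid read from a TGA codon that elsewhere ends translation. The stretch around that codon is shown because it is the feature that sets Gpx3, Gpx1, Gpx4 and Txnrd1 apart from the other 6 enzymes. Each line gives 18 bases before and 15 bases after the codon, with the selenocysteine TGA in capitals, from GENCODE M21 transcripts on the plus strand of mm10.
Gpx3-201, codon 73, chr11:54907256-54907258: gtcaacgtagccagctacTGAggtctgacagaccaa
Gpx1-201, codon 47, chr9:108339451-108339453: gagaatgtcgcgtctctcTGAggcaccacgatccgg
Gpx4-202, codon 73, chr10:80054737-80054739: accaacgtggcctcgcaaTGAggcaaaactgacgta
Txnrd1-201, codon 498, chr10:82896037-82896039: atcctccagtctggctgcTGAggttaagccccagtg
The codon is number 73 in Gpx3 and Gpx4, number 47 in Gpx1 and number 498 in Txnrd1, counted from the start codon.

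Gpx3 (ENSMUSG00000018339.11, mm10 chr11:54902453-54910377, plus strand) had 80 of its 97 reads in WT microbead libraries and was read in 14 of the 15 libraries. Its reads numbered 3, 2, 3 and 0 in the 4 Apoe-/- microbead libraries, 1, 1, 1 and 2 in Apoe-/- sham, 37, 29 and 14 in WT microbead and 1, 1, 1 and 1 in WT sham libraries. As levels these were 6.21, 5.46, 5.83 and 0 CPM in Apoe-/- microbead, 2.38, 4.44, 1.74 and 5.22 in Apoe-/- sham, 53.6, 29.0 and 18.7 in WT microbead and 1.52, 1.75, 1.2 and 2.15 in WT sham libraries. All 3 WT microbead libraries lay above all 12 others (6.32% of tested genes had them above all 4 WT sham libraries), and the 2 Apoe-/- groups overlapped each other and the WT sham group. Group means were 4.38 ± 2.93 CPM in Apoe-/- microbead, 3.44 ± 1.65 in Apoe-/- sham, 33.8 ± 17.9 in WT microbead and 1.65 ± 0.4 in WT sham libraries (SD, n = 4, 4, 3 and 4). The Apoe-/- microbead library with 0 reads allows a level of up to 4.67 CPM, taking 3 reads as the limit.

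**Figure D1:**
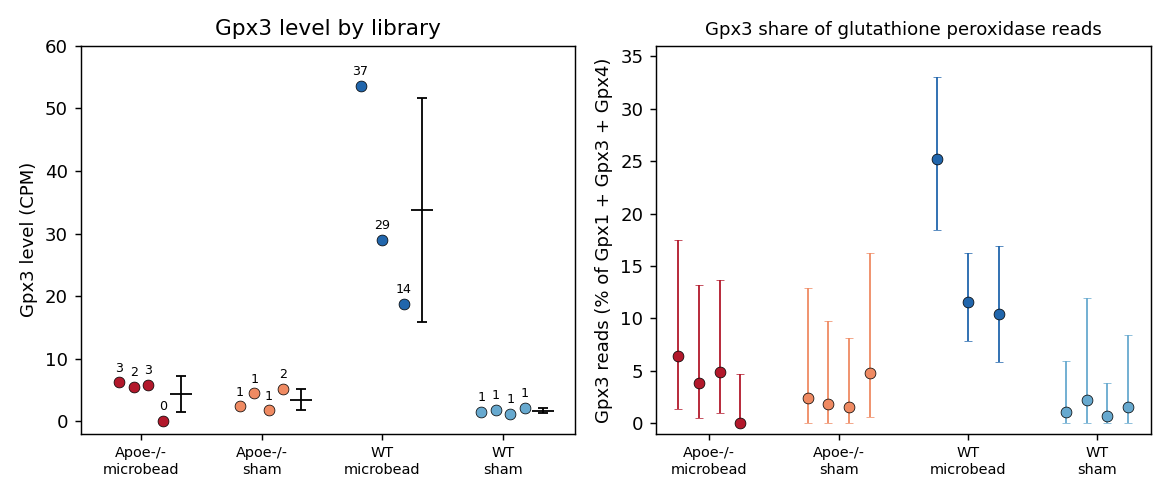
The left plot shows the Gpx3 level in CPM for each library, with its reads above each point and the group mean ± SD beside it (n = 4, 4, 3 and 4). The right plot shows Gpx3 reads as a percent of the reads of Gpx1, Gpx3 and Gpx4 together, with exact binomial 95% intervals that cover counting error only. The 3 WT microbead libraries, at 18.7 to 53.6 CPM and 10.4 to 25.2%, lie above all other libraries in both plots.

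At these counts the libraries outside WT microbead sit where genes that microglia are not known to use also sit. Among 1775 odorant, vomeronasal and taste receptor genes, the 95th percentile of the total reads of a gene was 59 in Apoe-/- microbead, 76.9 in Apoe-/- sham, 40 in WT microbead and 64 in WT sham libraries. Gpx3 had totals of 8, 5, 80 and 4 reads in those groups. The 80 reads of WT microbead libraries, which chose the gene, were above that percentile, and the totals of the other 3 groups were well below it. The median total of those receptor genes was 1, 2, 1 and 2 reads, below Gpx3 in each group. Totals below the percentile were not particular to Gpx3: Txnrd1 (15, 5, 27 and 12 reads) was below it in every group. Outside WT microbead, so were Prdx6 (34, 30 and 27) and Cat (46, 31 and 55). Sod2 was below it in both Apoe-/- groups (49 and 59), and Gpx4 (72) and Prdx5 (62) in Apoe-/- sham. Nearly all Gpx3 reads, 91 of 97, were assigned to the transcript Gpx3-201, and all 97 went to protein-coding transcripts.

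Summed over libraries, the Gpx3 rate in WT microbead was 20.7 times that in WT sham (exact Poisson 95% interval 7.79 to 77.9, 80 against 4 reads), and the interval covers counting error only. The fitted log2 fold change was 4.22 with a standard error of 0.71, a value of the same contrast that singled the gene out. Gpx3 passed the filter on low counts only through its WT microbead libraries. It was among the 13 of 6521 genes, or 0.199%, with an adjusted p under 0.05 in that contrast, a count that the choice of the gene fixed and from which nothing is read here. In 4 of 11 alternative fits that kept the gene, and in 5 of 15 fits that left 1 library out (WT sham 1, 2 or 3 and WT microbead 1 or 2), it was not among the genes under that level. The log2 fold change stayed between 3.73 and 4.5 in those 15 fits.

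The comparison that did not choose Gpx3 is microbead against sham in Apoe-/- retinas. There the summed rate ratio was 1.28 (exact Poisson 95% interval 0.369 to 4.97, 8 against 5 reads) and the log2 fold change was 0.35 (SE 0.85, edgeR adjusted p = 0.947). The sign of this value turned under length offsets, limma voom and log2 TPM. With 13 reads in total, changes as large as the upper bound of 4.97-fold, or as small as the lower bound, lie inside the interval. Between the sham groups, Apoe-/- over WT, the rate ratio was 1.97 (0.424 to 9.94, 5 against 4 reads), and the fitted log2 fold change was 0.91 (SE 0.94). Between the microbead groups, Apoe-/- over WT, Gpx3 had a rate ratio of 0.122 (0.0508 to 0.251, 8 against 80 reads) and a log2 fold change of -2.96 (SE 0.65). The response in Apoe-/- minus that in WT was -3.87 (SE 1.21). The comparison of microbead groups and the difference of responses use the WT microbead libraries that chose the gene and are given as values.

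The share of Gpx3 among the reads of the 3 read glutathione peroxidases does not depend on library scaling. It was 3.79 ± 2.73% in Apoe-/- microbead, 2.63 ± 1.47% in Apoe-/- sham, 15.7 ± 8.22% in WT microbead and 1.4 ± 0.676% in WT sham libraries (SD, n = 4, 4, 3 and 4). The WT microbead libraries ranged from 10.4 to 25.2%, and the remaining 12 libraries ranged from 0 to 6.38%. Gpx1 and Gpx4 together made up the larger part of these reads in every library.

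Gpx1 (chr9:108338903-108340343, plus strand), the cytosolic and mitochondrial glutathione peroxidase, was the most read of the 10 genes, with 849 reads over 15 libraries. Its level was 62.1, 95.6, 85.5 and 91.8 CPM in Apoe-/- microbead, 54.7, 169, 74.8 and 60 in Apoe-/- sham, 94.1, 150 and 119 in WT microbead and 95.7, 73.4, 125 and 88.2 in WT sham libraries. The groups overlapped in both genotypes. The log2 fold change of microbead over sham was -0.04 (SE 0.33, edgeR adjusted p = 0.986) in Apoe-/- and 0.34 (SE 0.33) in WT retinas.

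Gpx4 (chr10:80047166-80056439, plus strand) reduces lipid peroxides in membranes and protects against ferroptosis. Its level was 29.0, 41.0, 27.2 and 26.4 CPM in Apoe-/- microbead, 40.4, 71.0, 38.3 and 44.4 in Apoe-/- sham, 65.2, 72.0 and 41.3 in WT microbead and 42.5, 1.75, 45.6 and 47.3 in WT sham libraries. The WT sham library at 1.75 CPM held 1 Gpx4 read and stands apart from the other 3. Its log2 fold change of microbead over sham was -0.62 (SE 0.49, edgeR adjusted p = 0.776) in Apoe-/- and 0.79 (SE 0.47) in WT retinas.

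Prdx1 (chr4:116685544-116700822, plus strand), the abundant cytosolic peroxiredoxin, had a level of 41.4, 57.4, 66.1 and 66.9 CPM in Apoe-/- microbead, 76.1, 40.0, 64.4 and 49.6 in Apoe-/- sham, 82.6, 172 and 105 in WT microbead and 62.3, 59.4, 64.7 and 77.4 in WT sham libraries. All 3 WT microbead libraries lay above all 4 WT sham libraries, by a narrow gap, as in 6.32% of tested genes. They also lay above all 4 Apoe-/- microbead libraries, as in 3.7% of tested genes. The log2 fold change of microbead over sham was -0.01 (SE 0.29, edgeR adjusted p = 0.998) in Apoe-/- and 0.87 (SE 0.28) in WT retinas.

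Prdx5 (chr19:6906697-6910106, minus strand), a peroxiredoxin of mitochondria, peroxisomes and cytosol, had 41.4, 41.0, 48.6 and 37.3 CPM in Apoe-/- microbead, 59.5, 44.4, 19.1 and 41.7 in Apoe-/- sham, 53.6, 83.0 and 70.7 in WT microbead and 62.3, 33.2, 56.4 and 30.1 in WT sham libraries. Its log2 fold change of microbead over sham was 0.06 (SE 0.34, edgeR adjusted p = 0.979) in Apoe-/- and 0.59 (SE 0.32) in WT retinas. Prdx5 overlaps Trmt112 in the annotation, and the strand setting of the counting is not given in the sources used here.

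Prdx6 (chr1:161240112-161251219, minus strand) encodes a peroxiredoxin that uses glutathione and also has phospholipase activity. It had 12.4, 21.9, 15.6 and 18.7 CPM in Apoe-/- microbead, 19.0, 0, 26.1 and 18.3 in Apoe-/- sham, 20.3, 24 and 36 in WT microbead and 6.08, 5.24, 14.4 and 17.2 in WT sham libraries. All 3 WT microbead libraries lay above all 4 WT sham libraries, as in 6.32% of tested genes, and the 2 Apoe-/- groups overlapped. The log2 fold change of microbead over sham was -0.04 (SE 0.51, edgeR adjusted p = 0.99) in Apoe-/- and 1.31 (SE 0.51) in WT retinas. These values rest on 156 reads in all, and 23.4% of them went to protein-coding transcripts. That share was 48.8% in Apoe-/- microbead, 49.2% in Apoe-/- sham, 6.14% in WT microbead and 4.27% in WT sham libraries, with the remaining reads on transcripts annotated as nonsense-mediated decay, retained intron or processed transcript.

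**Figure D2:**
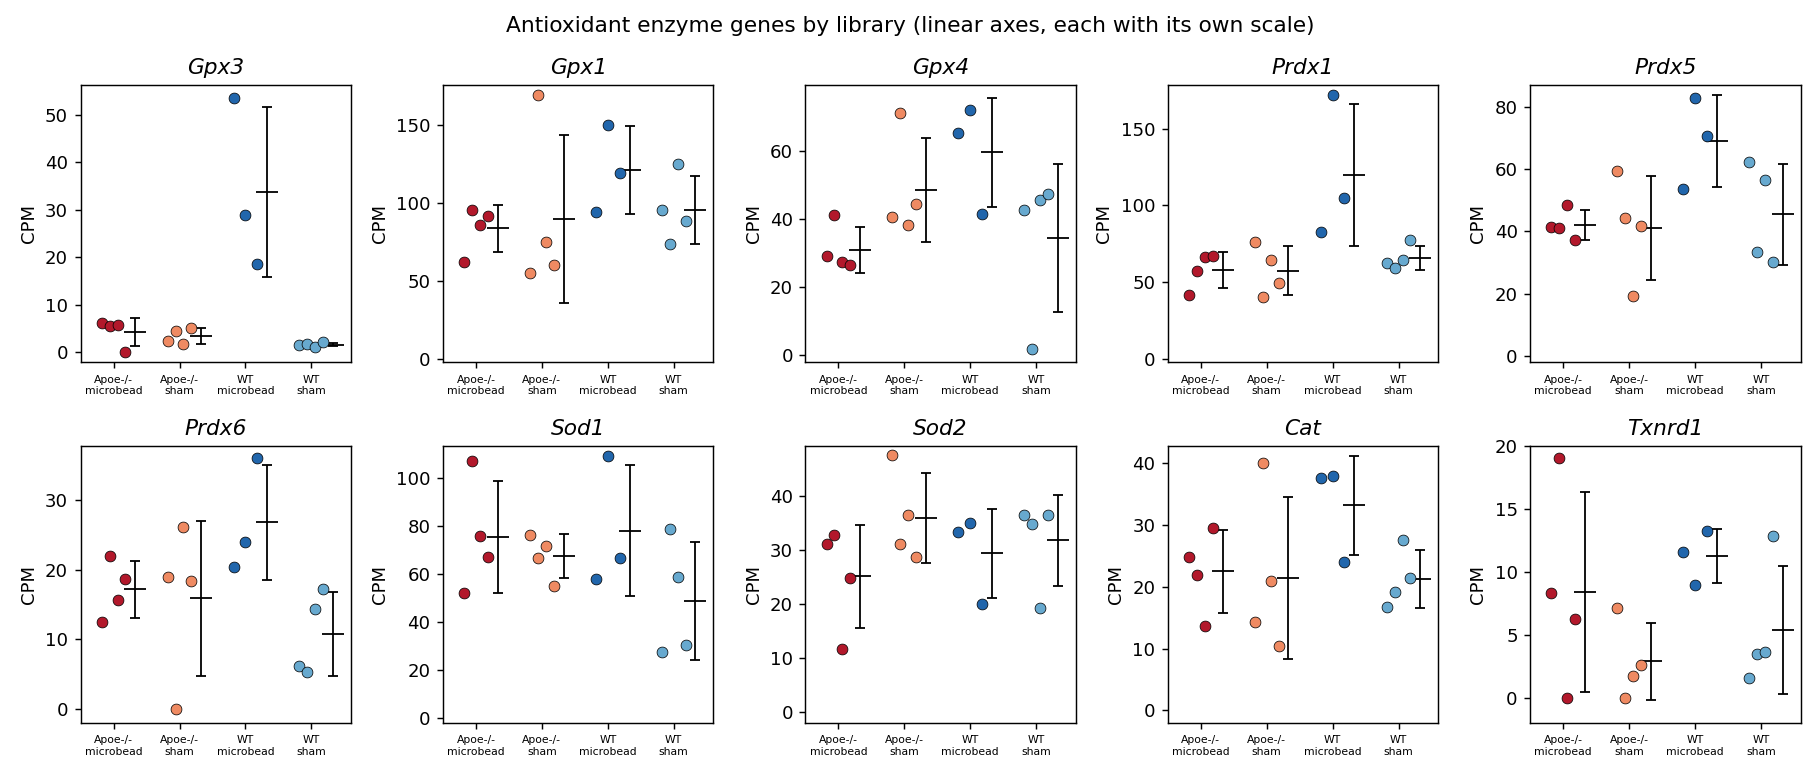
Each plot shows 1 gene in CPM, 1 point per library, with the group mean ± SD beside the points (n = 4 Apoe-/- microbead, 4 Apoe-/- sham, 3 WT microbead and 4 WT sham libraries) on its own linear scale. On CPM all 3 WT microbead libraries lie above all 4 WT sham libraries in Gpx3, Prdx1 and Prdx6 (6.32% of tested genes). On TPM they do so in 7 genes that do not include Prdx1 (21.7% of genes). In no gene plotted do the 2 Apoe-/- groups separate, beside 1.55% of tested genes with microbead above and 0.951% with it below.

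Sod1 (chr16:90220754-90226329, plus strand), the cytosolic superoxide dismutase, had 51.8, 107, 75.8 and 66.9 CPM in Apoe-/- microbead, 76.1, 66.6, 71.3 and 54.8 in Apoe-/- sham, 57.9, 109 and 66.7 in WT microbead and 27.3, 78.6, 58.7 and 30.1 in WT sham libraries. Its log2 fold change of microbead over sham was 0.15 (SE 0.34, edgeR adjusted p = 0.943) in Apoe-/- and 0.67 (SE 0.35) in WT retinas. Sod1 overlaps Scaf4 on the opposite strand, so reads of the 2 genes may not be told apart.

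Sod2 (chr17:13006846-13040063, plus strand), the mitochondrial superoxide dismutase, had 31.1, 32.8, 11.7 and 24.9 CPM in Apoe-/- microbead, 47.6, 31.1, 36.5 and 28.7 in Apoe-/- sham, 33.3, 35.0 and 20 in WT microbead and 36.5, 34.9, 19.2 and 36.6 in WT sham libraries. It was the 1 tested member with a negative log2 fold change in WT retinas, at -0.09 (SE 0.35), a sign that turned on the log2 TPM scale and with the satellite covariate. In Apoe-/- retinas its log2 fold change of microbead over sham was -0.55 (SE 0.36, edgeR adjusted p = 0.75).

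Cat (chr2:103453849-103485160, minus strand), the peroxisomal catalase, had 24.9, 21.9, 13.6 and 29.6 CPM in Apoe-/- microbead, 14.3, 40.0, 20.9 and 10.4 in Apoe-/- sham, 37.7, 38.0 and 24 in WT microbead and 16.7, 19.2, 27.6 and 21.5 in WT sham libraries. Its log2 fold change of microbead over sham was 0.18 (SE 0.4, edgeR adjusted p = 0.943) in Apoe-/- and 0.63 (SE 0.37) in WT retinas. Txnrd1 (chr10:82833951-82897712, plus strand), which overlaps Eid3, Gm38560 and Gm47073, had 59 reads in all and did not pass the filter. Its reads numbered 4, 7, 0 and 4 in Apoe-/- microbead, 3, 0, 1 and 1 in Apoe-/- sham, 8, 9 and 10 in WT microbead and 1, 2, 3 and 6 in WT sham libraries. The summed rate of Txnrd1 was 2.4 times as high in Apoe-/- microbead as in Apoe-/- sham (exact Poisson 95% interval 0.83 to 8.43) and 2.33 times as high in WT microbead as in WT sham (1.14 to 5.05), intervals that cover counting error only. The CPM values of the groups overlapped in both genotypes.

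Per length, and on the TPM scale of the deposited tables, Gpx3 stood at or near the bottom of the 10 genes in every group. Its mean TPM was 0.735 ± 0.501 in Apoe-/- microbead, 0.858 ± 0.528 in Apoe-/- sham, 9.32 ± 2.9 in WT microbead and 0.39 ± 0.222 in WT sham libraries (SD, n = 4, 4, 3 and 4). In rank by mean TPM, highest first, it was number 10, 9, 8 and 10 in those groups. In WT microbead libraries it lay between Prdx6 at 9.46 ± 4.44 and Cat at 6.5 ± 1.52 TPM (SD, n = 3 each), neighbours that do not differ from it beyond their spread. The most abundant members there were Prdx1 at 91.3 ± 39.8, Gpx1 at 67.7 ± 25.2 and Sod1 at 67 ± 32.1 TPM, whose spreads overlap. In Apoe-/- microbead libraries the order opened with Sod1 at 31.0 ± 5.67, Gpx1 at 23.7 ± 8.89 and Prdx1 at 23.4 ± 23.5 TPM.

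Among the 8 other tested members in WT retinas, 7 had a positive log2 fold change of microbead over sham and their median was 0.65, beside a median of -0.01 over all 6521 genes, 49.1% of which were positive. On the log2 TPM scale (pseudocount 1) all 8 were positive, from 0.39 for Sod2 to 1.84 for Gpx4, while Gpx3 was at 2.87 and the median of all genes there was 0.45. The distance between Gpx3 and the next member was thus smaller there than in the count fit, but it depended on the pseudocount. The mean Gpx3 level in WT sham libraries, 0.39 TPM, was below the pseudocount of 1. With a pseudocount of 0.1, Gpx3 was at 4.31, the next member, Gpx4, at 2.0 and the median of all genes at 0.67. None of the 8 passed an adjusted p under 0.05 by edgeR, DESeq2 or limma voom, beside 13 of 6521 genes, or 0.199%, by edgeR. At an unadjusted p under 0.05, 2 of the 8 passed, Prdx1 and Prdx6, beside 513 of 6521 genes or 7.87%. On CPM, all WT microbead libraries lay above all WT sham libraries in Gpx3, Prdx1 and Prdx6, beside 412 genes or 6.32% of all tested. On the deposited TPM they did so in 7 of the 10 genes (Gpx3, Gpx4, Prdx5, Prdx6, Sod1, Cat and Txnrd1) and not in Prdx1, beside 1403 of 6468 genes or 21.7%. In the count fit Gpx3 was at 4.22 and the highest of the other members, Prdx6, at 1.31. These counts come from libraries shared with the values that chose Gpx3.

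In Apoe-/- retinas none of the 9 tested members passed, at adjusted p from 0.75 to 0.998, beside 0 of 6521 genes (0.0%) by edgeR, and none of the 9 passed by DESeq2 or limma voom. By edgeR 453 genes or 6.95% had an unadjusted p under 0.05. Of the 8 other members, 3 had a positive and 5 a negative value, with a median of -0.02 and a range of -0.62 for Gpx4 to 0.18 for Cat. The signs of Gpx1, Prdx1 and Prdx6 turned on the log2 TPM scale and with length offsets. The 2 groups overlapped in every member, beside 101 genes (1.55% of all tested) with every microbead library above every sham library and 62 (0.951%) with the reverse. The 95% intervals of these members all held 0, and the narrowest, that of Prdx1, ran from -0.62 to 0.59.

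The response in Apoe-/- minus that in WT was negative in all 8 other members, beside 50.4% positive over all genes. The 8 values ran from -1.41 for Gpx4 to -0.38 for Gpx1, with a median of -0.53, and all use the same WT microbead libraries. None passed an adjusted p under 0.05, with edgeR adjusted p at 1.0 for each, and none by DESeq2 or limma voom, beside 0 of 6521 genes (0.0%), where 221 genes or 3.39% had an unadjusted p under 0.05. Prdx1 was the 1 of the 8 with an unadjusted p below that level.

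Between the sham groups, Apoe-/- over WT, 4 of the 8 other members were positive and 4 negative, with a median of 0.05 and values from -0.19 for Prdx5 to 0.71 for Prdx6, and none passed by edgeR, DESeq2 or limma voom, beside 1 of 6521 genes or 0.0153%. None of the 8 had an unadjusted p under 0.05 by edgeR, beside 566 genes or 8.68%. The signs of Prdx6 and Sod2 turned there on the log2 TPM scale. Between the microbead groups, Apoe-/- over WT, all 8 were negative, with a median of -0.60, beside 51.0% positive over all genes. They ran from -1.05 (SE 0.29, edgeR adjusted p = 0.374) for Prdx1 to -0.07 for Sod1. None passed by edgeR or limma voom, and DESeq2 gave no adjusted p for the members, beside 3 of 6521 genes or 0.046%, and 2 of the 8, Prdx1 and Prdx5, had an unadjusted p under 0.05, beside 469 genes or 7.19%. All Apoe-/- microbead libraries lay below all WT microbead libraries in Gpx3, Gpx4, Prdx1 and Prdx5, beside 241 genes or 3.7%, and no member lay wholly above, beside 205 genes or 3.14%. On TPM they lay below in Gpx3, Gpx1, Gpx4, Prdx5, Prdx6, Sod1 and Cat, 7 of the 10, and not in Prdx1, beside 1610 of 6468 genes or 24.9%. These comparisons share libraries with the comparisons above and cross the genotype, so plate position moves with them.

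**Figure D3:**
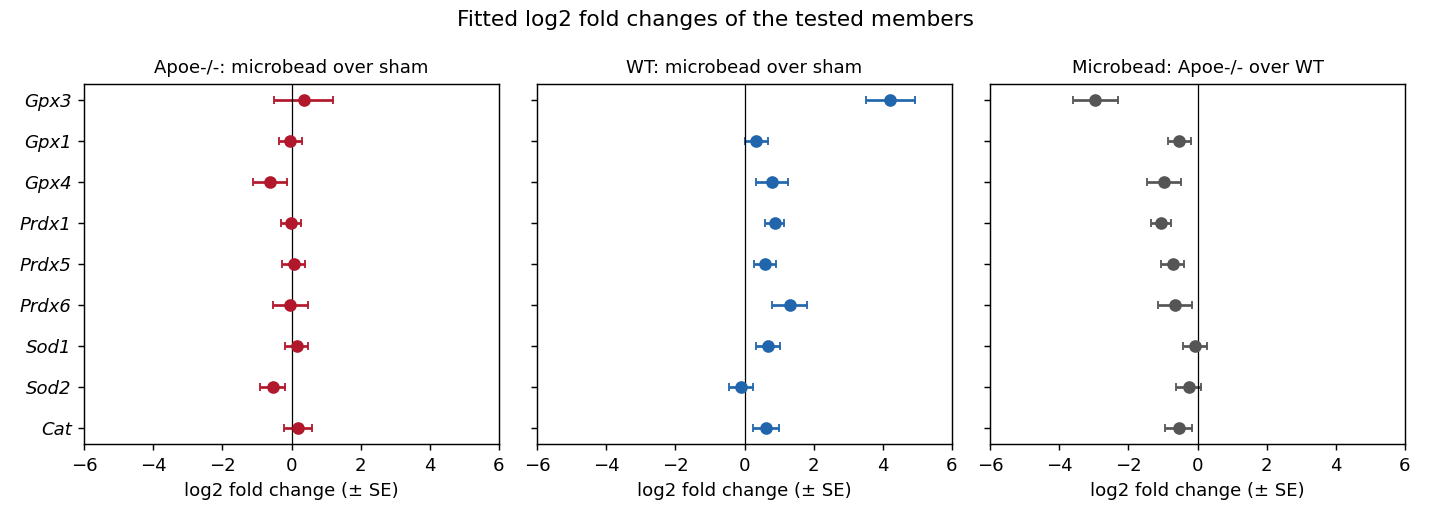
Points are fitted log2 fold changes and bars are ± SE for the 9 tested members, for microbead over sham in Apoe-/- (left) and WT retinas (middle) and for Apoe-/- over WT in microbead retinas (right). Gpx3 lies at 0.35 in Apoe-/- and 4.22 in WT retinas, whereas the other 8 members lie between -0.62 and 0.18 in Apoe-/- and between -0.09 and 1.31 in WT retinas.

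Within WT microbead retinas the order of the libraries differed between genes. Gpx3 was highest in library 1, at 53.6 CPM, and lowest in library 3, at 18.7 CPM. Gpx1, Prdx1, Prdx5 and Sod1 were lowest in library 1 and highest in library 2. Gpx4, Sod2 and Cat were lowest in library 3, as Gpx3 was, and highest in library 2. Prdx6 was lowest in library 1 and highest in library 3, and Txnrd1 was lowest in library 2 and highest in library 3. Over all 15 libraries, the Pearson correlation of log2 CPM with Gpx3 was 0.53 for Prdx1, 0.52 for Prdx5, 0.42 for Cat, 0.40 for Gpx4, 0.32 for Prdx6, 0.30 for Gpx1, 0.27 for Sod1 and -0.04 for Sod2. Among 6520 genes, Prdx1 ranked 146 and Sod2 ranked 3715 in likeness to Gpx3.

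The 6 genes most like Gpx3 by that measure were Lgals3 (0.87), Gpnmb (0.86), Spp1 (0.86), Aldh2 (0.85), Igf1 (0.84) and Fabp5 (0.80). Lgals3 encodes galectin-3, Gpnmb and Spp1 encode a membrane glycoprotein and osteopontin, Aldh2 a mitochondrial aldehyde dehydrogenase, Igf1 a growth factor and Fabp5 a fatty acid binding protein. Lgals3 averaged 9.83 ± 8.04 CPM in Apoe-/- microbead, 3.96 ± 3.03 in Apoe-/- sham, 128 ± 122 in WT microbead and 1.75 ± 1.82 in WT sham libraries (SD, n = 4, 4, 3 and 4). Aldh2 averaged 19.2 ± 5.62, 15.4 ± 5.64, 31.3 ± 8.24 and 15.2 ± 3.37 CPM in the same groups. The correlations rest in large part on the WT microbead libraries: over the other 12 they were 0.69 for Lgals3, 0.50 for Gpnmb, 0.19 for Spp1, 0.61 for Aldh2, 0.37 for Igf1 and 0.31 for Fabp5. The libraries share depth and satellite share with these genes, and no test is given.

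Other enzymes of the same pathways were described from 7 lists of 58 genes, 30 of which were tested. None of the 30 passed an adjusted p under 0.05 by edgeR or limma voom in any of the 5 comparisons. DESeq2 called Sqstm1 in WT retinas (1 of 30) and between the microbead groups, where it gave an adjusted p for 3 of the 30, beside 36 of 6518 genes (0.552%) in WT retinas and 26 of 579 (4.49%) between the microbead groups. At an unadjusted p under 0.05 by edgeR, 0 of 30 passed in Apoe-/- retinas (6.95% of all genes), 2 in WT retinas (7.87%), 1 for the difference of responses (3.39%), 3 between the sham groups (8.68%) and 2 between the microbead groups (7.19%). In Apoe-/- retinas 20 of 30 were positive for microbead over sham, with a median of 0.29 beside 0.01 over all genes, and in WT retinas 18 of 30 were positive, with a median of 0.13 beside -0.01. For the difference of responses 19 of 30 were positive, with a median of 0.16, unlike the members. Between the microbead groups 9 of 30 were positive, with a median of -0.09. The other glutathione peroxidase genes were close to unread: Gpx2, Gpx5 and Gpx7 had 3 reads each over all libraries and Gpx6 and Gpx8 had 1 each. The other peroxiredoxins Prdx2, Prdx3 and Prdx4 had a median of 0.42 in Apoe-/- and 0.13 in WT retinas. Thioredoxin and glutaredoxin genes had 4 of 7 positive in Apoe-/- and 3 of 7 in WT retinas, with Txnip, the thioredoxin inhibitor, at 108 ± 44.0 CPM in Apoe-/- microbead, 101 ± 7.24 in Apoe-/- sham, 118 ± 11.9 in WT microbead and 128 ± 30.2 in WT sham libraries (SD, n = 4, 4, 3 and 4).

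Nrf2, encoded by Nfe2l2, is the transcription factor that drives many antioxidant genes. Of 8 tested genes of its pathway, 6 were positive in Apoe-/- retinas (median 0.26) and 7 in WT retinas (median 0.38). Over all 6521 genes, 50.8% and 49.1% were positive. Nfe2l2 itself had log2 fold changes of 0.02 (SE 0.29, edgeR adjusted p = 0.993) in Apoe-/- and 0.3 (SE 0.29) in WT retinas. Those of Mafg were 0.28 (SE 0.3, edgeR adjusted p = 0.85) and 0.32 (SE 0.3). Sqstm1, which encodes the autophagy receptor p62, averaged 139 ± 25.6 CPM in Apoe-/- microbead, 106 ± 33.6 in Apoe-/- sham, 302 ± 147 in WT microbead and 112 ± 11.4 in WT sham libraries (SD, n = 4, 4, 3 and 4). Its log2 fold change was 0.38 (SE 0.31, edgeR adjusted p = 0.78) in Apoe-/- and 1.43 (SE 0.32) in WT retinas. Txn1, the thioredoxin gene, named after its values were seen, had log2 fold changes of 0.37 (SE 0.71, edgeR adjusted p = 0.929) in Apoe-/- and 1.98 (SE 0.62) in WT retinas. Selenop, the selenium carrier, was the most read gene of the lists with 7017 reads, and its log2 fold changes were 0.39 (SE 0.24, edgeR adjusted p = 0.749) in Apoe-/- and 0.23 (SE 0.26) in WT retinas.

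**Figure D4:**
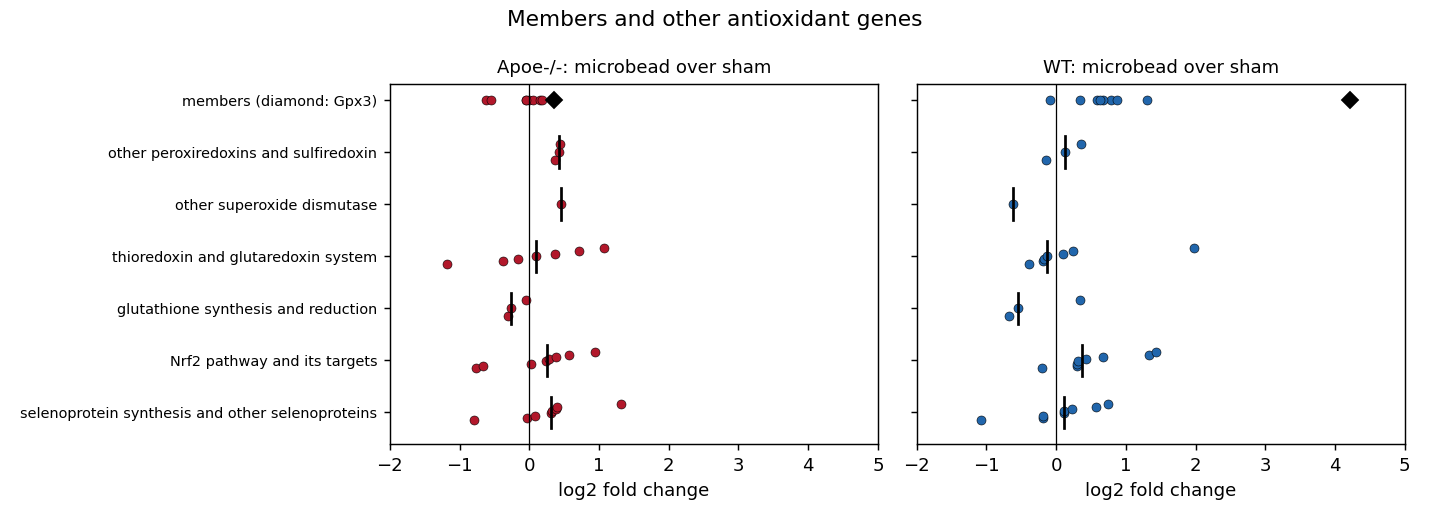
Points are fitted log2 fold changes of microbead over sham for the tested members (top row, with Gpx3 as a diamond) and for the 30 tested genes of the lists (one row per list with a tested gene, with a bar at the list median). In WT retinas Gpx3 at 4.22 lies beyond every other gene plotted, the next being Txn1 at 1.98, and in Apoe-/- retinas it lies at 0.35 within the range of the other genes.

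The antioxidant response element that Nrf2 binds was searched in promoters as TGACNNNGC on both strands, from 250 bases before to 50 after each start site in the RefSeq table of GRCm38.p6. It was present in 4071 of 32851 promoters, or 12.4%, and in 3 of the 14 promoters listed for 9 of the 10 members (those of Prdx1 and Sod1 and 1 of Txnrd1). The Gpx3 promoter, chr11:54902604-54902903 on the plus strand, is shown because Gpx3 was the member with the largest WT value, and these letters held no match.
Gpx3 promoter: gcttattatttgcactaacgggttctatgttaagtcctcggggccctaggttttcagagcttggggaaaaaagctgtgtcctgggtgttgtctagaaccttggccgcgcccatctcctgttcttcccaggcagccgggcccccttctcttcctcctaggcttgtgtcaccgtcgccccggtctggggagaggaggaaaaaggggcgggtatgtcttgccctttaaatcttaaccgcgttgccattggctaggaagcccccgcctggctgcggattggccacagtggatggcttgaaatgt

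Markers of other retinal cells were measured beside these values. Summed rod photoreceptor markers were 167 to 2596 CPM in Apoe-/- microbead, 151 to 1550 in Apoe-/- sham, 100 to 646 in WT microbead and 568 to 2602 in WT sham libraries, all 13 with reads. Summed Müller glia markers, 8 of 9 with reads, were 79.2 to 149, 112 to 164, 108 to 149 and 107 to 161 CPM in the same groups, with most reads on Glul and Slc1a3. Dapl1 was at 0 in all groups, Aqp4 in both WT groups, Rlbp1 and Sox9 in WT microbead libraries and Dkk3 in WT sham libraries. Summed pigment epithelium markers, 7 of 8 with reads, were 7.78 to 16.6, 6.96 to 33.9, 7.24 to 23.0 and 5.24 to 25.2 CPM, and border-associated macrophage markers, all 8 with reads, were 49.2 to 141, 31.1 to 112, 33.3 to 113 and 28.0 to 80.5 CPM. Within the macrophage list genes went both ways in WT retinas. WT microbead and WT sham reads were 95 and 24 for Ms4a7 and 51 and 32 for F13a1. They were 16 and 40 for Mrc1 and 2 and 23 for both Pf4 and Cd163. The groups overlapped on each of these lists and on the monocyte markers. Summed neutrophil markers, 6 of 8 with reads, were 319 to 393 CPM in Apoe-/- microbead libraries, above all other groups by a narrow gap. They were 244 to 317 CPM in Apoe-/- sham, 268 to 295 in WT microbead and 246 to 295 in WT sham libraries. Most of these reads fell on Csf3r, with 640, 419, 660 and 622 in those groups. Of the 8 genes, 4, 4, 4 and 5 had no reads there, so the sum mainly follows Csf3r. Red blood cell markers had no reads in WT microbead libraries and 1.2 to 2.15 CPM in WT sham libraries. The part of such cells in the Gpx3 values was not tested.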

How the data were processed

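Per the labels' protocols, microglia were sorted from retinas and sequenced as bulk RNA. Per the submitters' processing notes, Salmon 1.4.0, R 4.0.3, DESeq2 1.30.1 and mm10 were used. The authors deposited Salmon tables of estimated counts and TPM per transcript, and a gene table of TPM. Per the file headers the tables also hold effective lengths in bases, used here only for length offsets. Here 116023 of 116945 transcripts were assigned to 35519 genes with GENCODE M21, and counts were summed per gene and rounded. Unassigned reads were 0.2168 to 0.3537% per library. Counts were filtered with filterByExpr and fitted in 1 edgeR 4.0.16 quasi-likelihood model with TMM scaling over 15 libraries and 4 groups, with Benjamini-Hochberg adjustment over 6521 genes. Levels are CPM; SDs are between libraries. The fit was also run on simulated counts. Changes were set there only in genes with a higher mean level than Gpx3, so genes as low as Gpx3 were not covered. Named genes are the 10 members, up to 3 highest genes per list, genes called in any comparison and the 6 most like Gpx3; exceptions are marked. The members and lists were chosen with earlier results of these data known. Alternatives included another scaling, filter and tool (DESeq2 1.42.0, limma 3.58.1), log2 TPM with pseudocounts of 1 or 0.1, and leaving libraries out.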

Additional observations from a re-analysis of the deposited data

Results flagged for a closer look

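In 30 groups of 4 libraries examined (10 genes in 3 groups), 3 held a library far from the others by Dixon's 95% critical value, a level that about 1 in 20 groups passes by chance. Gpx3 was at 0 CPM, with 0 reads, in Apoe-/- microbead library 4, against 5.46 to 6.21 CPM (2 to 3 reads) in the other 3 libraries of that group. Gpx4 was at 1.75 CPM, with 1 read, in WT sham library 2, against 42.5 to 47.3 CPM in the other 3. Sod2 was at 19.2 CPM, with 16 reads, in WT sham library 3, against 34.9 to 36.6 CPM in the other 3.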

How the results depend on the processing

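In WT retinas (microbead over sham, 13 genes called) the number of genes called was 36 with DESeq2, 7 with limma voom, 124 with no filter, 5 with a stricter filter (10 reads or more in 7 libraries or more), 7 with length offsets, 43 and 25 with log2 TPM (pseudocount 1, filtered and not), 21 without the satellite gene models, 7 with the replicate block and 5 with the satellite covariate, which was chosen after seeing the data. It ran from 0 to 29 when 1 library was left out (0 without WT microbead 2). The Gpx3 call was lost with voom (3.75), length offsets (3.94), log2 TPM with pseudocount 0.1 (4.31) and the replicate block (4.03), so 0 members were called there and 0 with the stricter filter, which removed Gpx3. Leaving out 1 library gave 0 to 1 members called and 3.73 to 4.5 for Gpx3. Between the microbead groups (3 genes called) the number was 26 with DESeq2, 1 with voom, the stricter filter, length offsets, the block and log2 TPM with pseudocount 0.1, 73 with no filter, and 25 and 19 with log2 TPM (pseudocount 1, filtered and not), and 1 to 7 with a library left out. Gpx3 was called there with no filter (-3.05) and with log2 TPM (-2.59, filtered and not), as 1 member. The Gpx3 calls in both contrasts use the WT microbead libraries that chose the gene, so nothing is read from them. In Apoe-/- retinas (0 genes called) the number was 37 with no filter and 1 on each log2 TPM scale. For the difference of responses (0 genes) it was 45 with no filter and 1 with log2 TPM at pseudocount 1, filtered or not, and with the satellite covariate. Between the sham groups (1 gene) it was 41 with no filter and 3 on each log2 TPM scale. The cause of these changes was not tested. Fits without a filter held 28112 genes, those with the stricter filter 4974, and those on log2 TPM 12213 (filtered) or 28285 (not).

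Some values changed sign, none past the threshold, and the largest of them was 0.71 before the change (Prdx6 between the sham groups). In Apoe-/- retinas Gpx3 was -0.26 with voom, -0.15 with length offsets, -0.11 and -0.11 with log2 TPM (pseudocount 1, filtered and not) and -0.5 with pseudocount 0.1. Gpx1 was 0.11 (voom), 0.14 (no filter), 0.17 (offsets), 0.41, 0.43 and 0.41 (log2 TPM) and 0.01 (block). Prdx1 was 0.1 (no filter), 0.32 (offsets), 0.37, 0.41 and 0.37 (log2 TPM) and 0.01 (without satellite models). Prdx6 was 0.04 (no filter), 0.14 (offsets), 0.41, 1.09 and 0.41 (log2 TPM) and 0.03 (block). Prdx5 was -0.01 with the satellite covariate. In WT retinas Sod2 was 0.39, 0.42 and 0.39 (log2 TPM) and 0.18 (covariate). Between the sham groups Prdx6 was -0.24, -0.87 and -0.24 and Sod2 -0.37, -0.45 and -0.37 on log2 TPM, Sod2 was -0.01 with offsets and Prdx1 0.0 with the covariate. Between the microbead groups Sod1 was 0.07 with the block and with the covariate, and Prdx6 0.03 with the covariate. With 1 library left out, signs turned within these ranges: Gpx1 -0.23 to 0.39, Prdx1 -0.13 to 0.14, Prdx5 -0.23 to 0.33, Prdx6 -0.33 to 0.28, Sod1 -0.06 to 0.28 and Cat -0.04 to 0.53 in Apoe-/- retinas, and Sod2 -0.29 to 0.12 in WT retinas. The same held for Gpx1 -0.56 to 0.05 in the difference of responses, for Gpx1 -0.59 to 0.02, Prdx5 -0.47 to 0.08 and Cat -0.45 to 0.12 between the sham groups, and for Sod1 -0.27 to 0.25 between the microbead groups. On log2 TPM with pseudocount 1 the median of all genes moved to 0.45 in WT retinas and 0.09 in Apoe-/- retinas.

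No likeness of same-numbered libraries was seen: 21 same-numbered pairs had correlations of -0.166 to 0.223 and 63 other pairs -0.322 to 0.305. Of 15 libraries, 2 were closest to one with their own number. With so few libraries per group this cannot tell whether same-numbered retinas shared a mouse, which the labels do not say. The other members were never past the threshold in 1067 alternative fits. DESeq2 gave no adjusted p for any member between the microbead groups, so those values are not among these fits. Depth limits the low members most: Gpx3 had 97 and Txnrd1 59 reads in all.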
